A study of Mus musculus with 4 samples.

Results

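Regulators of G protein signalling (RGS) were examined in mouse T-helper 17 (Th17) cells, as the 8 genes Rgs1, Rgs2, Rgs3, Rgs10, Rgs14, Rgs16, Rgs18 and Rgs19. They were chosen by symbol from the 50600 genes of the deposited count tables, which hold 21 Rgs genes in all. RNA came from primary Th17 cells of strain C57BL/6NJ, in 1 group of 4 libraries, named here replicates 1 to 4 after the number in their labels. All 4 carry the same donor identifier and each its own biosample; separate animals or cultures are not stated, so SDs and p-values cover only the spread between these libraries, and how much of it is technical is not known. A time of 2 hours stands in the header of each file, with no statement of the event it is counted from, and a linked protocol is titled for the differentiation of CD4 T cells. The assay is labelled total RNA-seq, while the linked library protocol is titled for poly(A)+ RNA; age is unknown. There is no untreated or other cell group, so the design allows levels, comparisons of genes within libraries, and comparisons of the libraries with each other.

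RGS proteins bind active G protein alpha subunits and speed up the hydrolysis of GTP, which ends the signal of a G protein-coupled receptor. In lymphocytes they are known for limiting the response to chemokines and other chemoattractants. The family is divided by sequence into groups. The R4 group, of mostly small proteins, has Rgs1, Rgs2, Rgs3, Rgs16 and Rgs18 among its members. Others are the R12 group (Rgs10, Rgs12, Rgs14), the RZ group (Rgs19) and the R7 group (Rgs11), whose members pair with the G beta subunit Gnb5.

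The libraries held 25847970 to 40652146 counts. All 7 T cell receptor and T cell genes checked stood above 1 TPM, with a summed level of 7368 to 7884 TPM. TPM is the count per base of annotated exon, scaled to 1000000 per library. Of 12 Th17 genes 9 averaged at least 1 TPM, and the list summed to 2919 to 3562 TPM, most of it from the transcription factors Irf4 (1856 ± 292 TPM), Batf (684 ± 55.8 TPM) and Stat3 (599 ± 37.2 TPM). Of its 9 tested genes 3 passed an unadjusted p under 0.05 in the edgeR test, against 692 of all 11567 tested genes. The cytokine gene Il17f, at 12.4 ± 5.91 TPM, was the 1 that varied beyond the trend of genes of like abundance (edgeR adjusted p = 0.017). Of all tested genes 94 (0.813%) did so. Il17a, a defining cytokine gene, stood at 5.65 ± 1.2 TPM, while the receptors Il23r (0.132 ± 0.124 TPM) and Ccr6 (0.207 ± 0.177 TPM) were close to 0 (SD, n = 4). Markers of other cells were low in sum: 0.448 to 1.94 TPM for 6 B cell genes, 0.877 to 2.02 TPM for 7 myeloid genes, 0.660 to 1.42 TPM for 5 NK cell genes and 1.80 to 4.21 TPM for 7 platelet and erythroid genes. Of the last list 6 genes, Pf4 and Ppbp among them, had 0 counts in every library, and Itga2b accounts for the whole sum. The libraries differed in sex-linked transcripts, with sex not collected in the labels. Ddx3y, a Y-linked gene, stood at 305, 213, 0.914 and 1.39 TPM in replicates 1 to 4, and Xist, expressed from the inactive X chromosome, at 0.791, 0.602, 142 and 76.5 TPM. Replicates 1 and 2 on one side and replicates 3 and 4 on the other thus cannot all come from 1 animal or 1 pool of RNA, whatever the shared donor identifier stands for.

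Of the 8 RGS genes 7 were present at 10 TPM or more on average, and Rgs18 was not detected. From high to low the mean levels were those of Rgs10, Rgs2, Rgs19, Rgs14, Rgs1, Rgs16 and Rgs3. The 8 genes summed to 429, 451, 479 and 457 TPM in replicates 1 to 4. Rgs10 alone made up 35.7 ± 2.85% of that sum, Rgs2 22.5 ± 2.19%, and Rgs3 2.92 ± 0.590% (SD, n = 4). In bulk RNA, fewer cells of a type and less RNA per cell cannot be told apart, so a level is an average over all cells of a library.

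**Figure D1:**
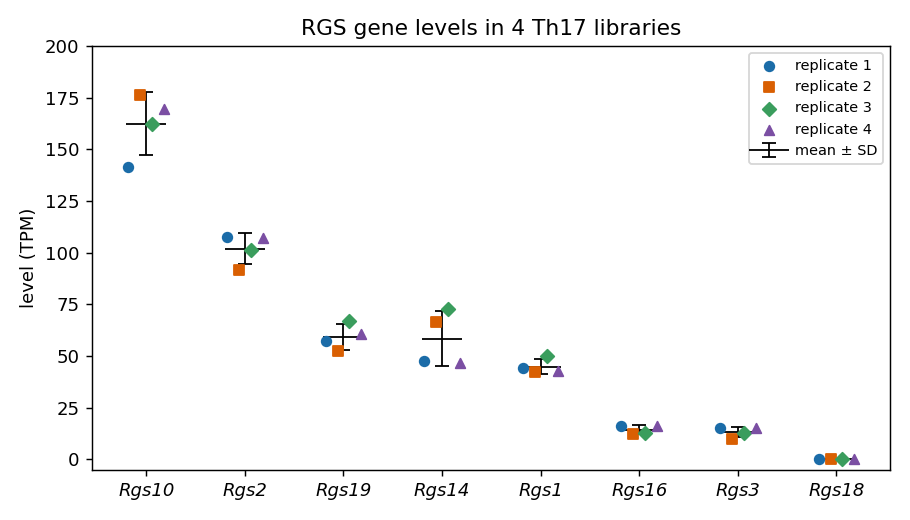
Level of each RGS gene in TPM (y axis) in each of 4 Th17 libraries (points), with the mean and SD (black). Rgs10 sits between 141 and 176 TPM, above every other member in every library, and Rgs18 is at 0 in all 4.

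The R12 group held the highest member. Rgs10, a short protein made of little more than the RGS domain and known to act on G alpha i subunits, stood at 141, 176, 162 and 169 TPM in replicates 1 to 4, a mean of 162 ± 15.1 TPM. It was lowest in replicate 1 and ranked 974 among the 9831 protein coding genes that averaged at least 1 TPM. Rgs14, which also carries Ras-binding domains and a GoLoco motif that holds G alpha i in its GDP-bound form, stood at 47.6, 66.5, 72.8 and 46.6 TPM, a mean of 58.4 ± 13.3 TPM. Replicates 2 and 3 were high and replicates 1 and 4 low, with no value between 47.6 and 66.5 TPM. Its coefficient of variation of 22.8% was the widest of the 7 detected members on the TPM scale. Rgs12, a related multidomain gene outside the 8, stood far below both at 2.28 ± 0.324 TPM. Together the 3 genes of the R12 group summed to 223 ± 24.0 TPM, against 174 ± 12.3 TPM for the 10 genes of the R4 group, 59.2 ± 6.15 TPM for the 3 of the RZ group and 8.85 ± 3.50 TPM for the 4 of the R7 group.

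Of the 10 R4 genes, 4 were detected above 1 TPM and the other 6 had no count in any library. Rgs2, which acts preferentially on G alpha q, stood at 108, 91.5, 101 and 107 TPM, a mean of 102 ± 7.53 TPM, with replicate 2 lowest. Rgs1, which restrains chemokine receptor signalling in lymphocytes, stood at 44.1, 42.4, 50.2 and 42.5 TPM, a mean of 44.8 ± 3.68 TPM. Replicates 1, 2 and 4 lay close together and replicate 3 above them. Rgs16, a gene induced on T cell activation, stood at 16.3, 12.3, 12.8 and 16.0 TPM, a mean of 14.4 ± 2.10 TPM. Rgs3, a long gene with several isoforms, stood at 15.1, 9.92, 12.96 and 14.9 TPM, a mean of 13.2 ± 2.41 TPM. In both of these genes replicates 1 and 4 were the high ones.

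Rgs18, best known from platelets and their precursors, had 0 counts in all 4 libraries. A count of 0 allows up to 3 counts, which for its exon length of 2031 bases corresponds to 0.121 to 0.195 TPM. Against that limit, set per library, even Rgs3 stood at least 66.4-fold higher in every library. Intervals and limits of this kind cover counting error only.

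Rgs19, also named GAIP and a partner of G alpha i subunits, was the only RZ gene detected. It stood at 57.2, 52.3, 66.9 and 60.6 TPM, a mean of 59.2 ± 6.15 TPM, on 4941 counts over the 4 libraries. Rgs17 and Rgs20, the other RZ genes, had 0 counts.

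The order of the members was tested between neighbours, as the difference in log2(TPM + 1) within each library. Neighbours were taken from the mean TPM over these same 4 libraries, so the direction of each pair came from the data tested. Rgs10 exceeded Rgs2 by 0.66 ± 0.22, Rgs2 exceeded Rgs19 by 0.78 ± 0.13, Rgs14 exceeded Rgs1 by 0.35 ± 0.27 and Rgs1 exceeded Rgs16 by 1.58 ± 0.26, each in 4 of 4 libraries (SD, n = 4). Rgs19 and Rgs14 did not differ beyond their spread, with a difference of 0.043 ± 0.33 and Rgs19 higher in 2 of 4 libraries. Rgs16 and Rgs3 did not either, with 0.12 ± 0.13 and Rgs16 higher in 3 of 4. By flipping signs in an exact permutation test (two-sided), each pair with one direction in all 4 libraries had p = 0.125, adjusted p = 0.175 over the 7 neighbour pairs, which include Rgs3 and Rgs18. That p is the smallest 4 libraries can give, so no pair could pass 0.05. Rgs19 against Rgs14 had p = 0.875 (adjusted 0.875) and Rgs16 against Rgs3 p = 0.250 (adjusted 0.292) in the same exact permutation test.

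The annotation behind the length scaling bears on this order. Rgs1 (chromosome 1, 144242296 to 144249242, minus strand, mm10) is counted over 6947 bases, which is its whole gene span, introns included, since its annotated transcripts together leave no intron uncovered. Release M21 of the annotation lists 9 Rgs1 transcripts, 3 of them with a retained intron, and its longest coding transcript has 3841 bases. Rgs3 is counted over 10801 bases in 36 exon intervals, against 4698 bases for its longest coding transcript, and Rgs10 over 1711 against 880 bases. For Rgs16 (2339 bases) and Rgs18 both lengths are the same.

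With the coding transcript length in place of the union of exons, a choice made after the data were seen, Rgs10 stood at 235 ± 22.2 TPM and Rgs1 at 60.4 ± 4.80 TPM (SD, n = 4). Rgs3 then stood at 22.7 ± 4.11 TPM and Rgs16 at 10.7 ± 1.57 TPM. Rgs1 then exceeded Rgs14 by 0.41 ± 0.27 and Rgs3 exceeded Rgs16 by 1.01 ± 0.14 on the log2(TPM + 1) scale, each in 4 of 4 libraries and each the opposite of the order above. The places of Rgs10 first, Rgs2 next and Rgs19 after it were the same under both lengths. In CPM, which is counts per 1000000 with no length, Rgs2 was highest at 108 ± 7.83 and Rgs1 next at 90.9 ± 4.72, on 13952 and 11751 counts in all.

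**Figure D2:**
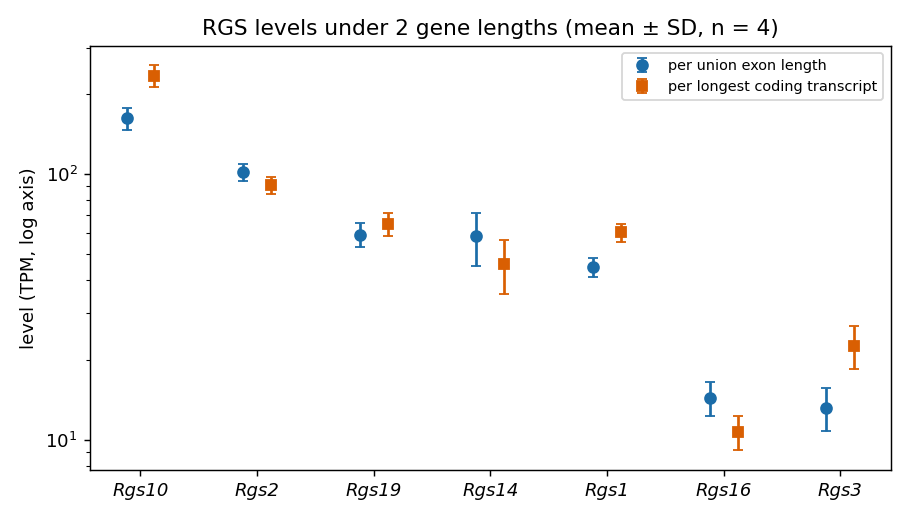
Mean level and SD (n = 4 libraries) of the 7 detected RGS genes in TPM (log axis), per union exon length as deposited (circles) and per longest coding transcript (squares). Rgs1 moves above Rgs14 and Rgs3 above Rgs16 when the coding transcript length is used.

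Variation between libraries was then set against genes of like abundance, after TMM scaling of the libraries. Of the 8 members 7 passed the expression filter, and 0 of these 7 varied beyond the trend, against 94 of 11567 tested genes (0.813%). At an unadjusted p under 0.05 the count was also 0 of 7, against 692 of all tested genes. The members closest to the threshold were Rgs3 (edgeR deviance test, adjusted p = 0.954) and Rgs14 (edgeR adjusted p = 0.972). A p that misses the threshold does not show that the levels were equal. The median SD of log2 CPM was 0.18 over the 7 members and 0.18 over all tested genes.

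Rgs1 was the flattest member. Its TMM-scaled level was 90.0, 89.1, 94.0 and 90.7 CPM in replicates 1 to 4, a SD of 0.033 on the log2 scale, and 0.908% of tested genes had a lower SD. Replicate 3 was the highest library on both scales, and nearer to the others on this one. Rgs3 was the least flat, at 47.9, 32.4, 37.7 and 49.5 CPM with a log2 SD of 0.29; 77.0% of tested genes had a lower one. Rgs14 and Rgs16 followed with SDs of 0.28 and 0.26.

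**Figure D3:**
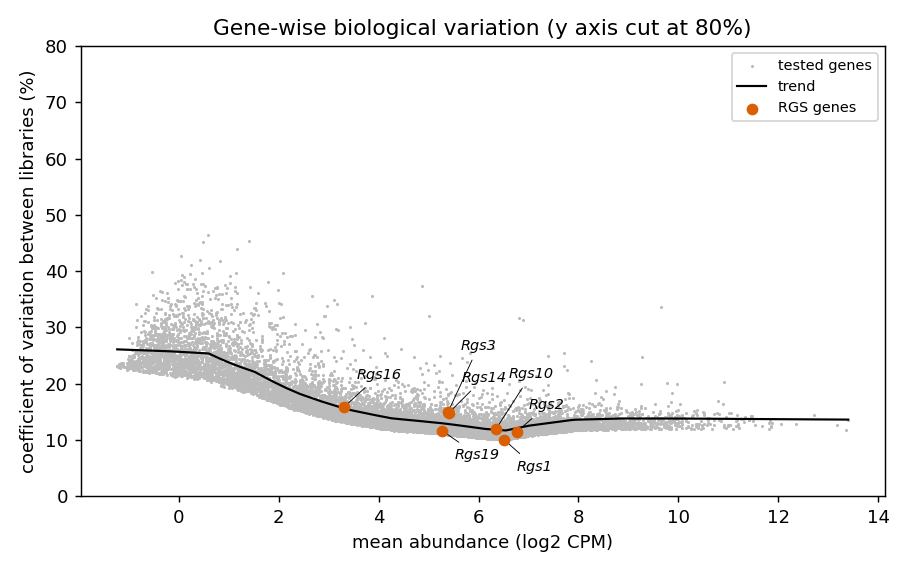
Coefficient of biological variation between the 4 libraries in percent (y axis, cut at 80%) against mean abundance in log2 CPM for all tested genes (grey), the abundance trend (line) and the 7 tested RGS genes (orange). The RGS genes lie on or close to the trend, from 10.1% for Rgs1 to 15.9% for Rgs16. The edgeR fit draws these gene-wise values toward the trend, so closeness to it is partly built in.

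The members differed in which libraries were on top, within a spread that passed no test. On the TMM-scaled log2 CPM scale, replicates 1 and 4 were the 2 highest libraries for Rgs2, Rgs3 and Rgs16, which is 3 of 7 members against 20.7% of all tested genes. Replicates 2 and 3 were highest for Rgs14 (20.3% of tested genes) and replicates 2 and 4 for Rgs10 (20.2%). Replicates 3 and 4 were highest for Rgs1 and Rgs19, 2 of 7 members (8.21%). For Rgs1, replicate 4 lay only slightly above replicate 1, at 90.7 against 90.0 CPM. Replicates 3 and 4 were also those with high Xist, and a part of sex in these values was not tested. No member had replicates 1 and 2 on top (9.71% of tested genes) or replicates 1 and 3 (20.9%). These groupings were read from the values and carry no test, and no member was called as varying.

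**Figure D4:**
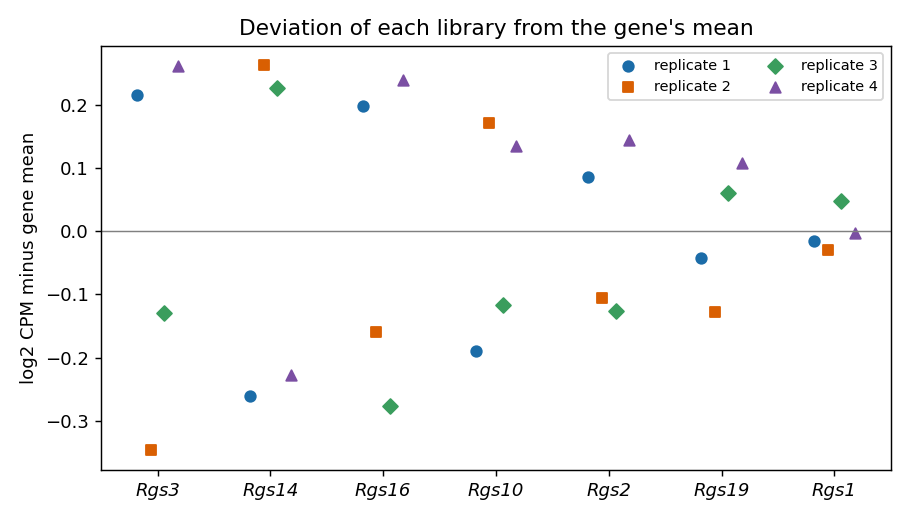
TMM-scaled log2 CPM of each RGS gene in each library minus the gene's mean over the 4 libraries (y axis), genes ordered from the widest SD (Rgs3, 0.29) to the narrowest (Rgs1, 0.033). Rgs3, Rgs16 and Rgs2 have replicates 1 and 4 on top, and Rgs14 has them at the bottom.

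The contrast was clearest between Rgs14 and Rgs3, a pair picked after the values were seen. The TPM ratio of Rgs14 to Rgs3 was 3.15, 6.70, 5.62 and 3.12 in replicates 1 to 4. Of the counts of both genes, Rgs14 took 42.1% (95% Wilson interval 40.3 to 43.9%), 60.7% (59.0 to 62.3%), 56.4% (54.5 to 58.4%) and 41.8% (39.8 to 44.0%). The intervals of replicates 2 and 3 did not overlap those of replicates 1 and 4, which covers counting error and not biological spread. This division of the libraries was read from the same values, so the gap is no test of it. How many other gene pairs show such a gap was not computed. Rgs14 over Rgs16 divided the libraries in the same way, at 2.92, 5.39, 5.71 and 2.90, with Rgs16 already known to be high in replicates 1 and 4. In contrast, Rgs10 over Rgs2 ranged from 1.31 in replicate 1 to 1.93 in replicate 2, with replicates 3 and 4 at 1.60 and 1.58.

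The sequences before the start sites of Rgs2 and Rgs16 are shown because these genes had the same libraries on top, with that of Rgs10, the highest member, for comparison. They are the 250 bases upstream of the RefSeq start on GRCm38.p6, 5′ to 3′ on the gene's strand, at chr1:144004150-144004399 (minus strand) for Rgs2, chr1:153740103-153740352 (plus strand) for Rgs16 and chr7:128418173-128418422 (minus strand) for Rgs10. Capitals mark matches on either strand to 5 motifs, and no matches overlapped. The motifs were the core of a cAMP response element (TGACG), a site of AP-1 (TGANTCA), the core bound by NFAT (GGAAA), the box named after its letters (CCAAT) and the TATA box (TATAAA).
Rgs2: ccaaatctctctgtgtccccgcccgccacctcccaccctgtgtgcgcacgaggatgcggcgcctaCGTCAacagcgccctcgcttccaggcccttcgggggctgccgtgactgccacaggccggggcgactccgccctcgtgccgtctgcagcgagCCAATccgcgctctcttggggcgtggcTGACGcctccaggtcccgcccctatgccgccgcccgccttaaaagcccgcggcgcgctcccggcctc
Rgs16: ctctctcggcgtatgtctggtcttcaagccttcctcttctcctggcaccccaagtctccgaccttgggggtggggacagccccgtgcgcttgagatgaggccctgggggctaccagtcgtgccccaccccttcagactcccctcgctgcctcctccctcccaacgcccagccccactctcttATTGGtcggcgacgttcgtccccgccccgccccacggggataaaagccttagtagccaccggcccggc
Rgs10: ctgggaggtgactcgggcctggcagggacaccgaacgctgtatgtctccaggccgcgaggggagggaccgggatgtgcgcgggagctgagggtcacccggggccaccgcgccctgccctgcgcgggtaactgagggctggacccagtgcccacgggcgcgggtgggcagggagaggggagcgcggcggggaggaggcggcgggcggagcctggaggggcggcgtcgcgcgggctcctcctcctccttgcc
The Rgs2 window held 2 matches to TGACG and 1 to CCAAT. Rgs16 held 1 match to CCAAT, and Rgs10 held none of the 5 motifs. The Rgs10 window lies inside the span of that gene as counted here, whose exons reach to 128418758. Of 32851 RefSeq windows of the same length, 17.8% held the cAMP element core, 6.75% the AP-1 site, 55.6% the NFAT core, 33.8% the CCAAT box and 12.4% the TATA box. CCAAT was the only one of the 5 motifs that both Rgs2 and Rgs16 held, and neither window of Rgs3, which had the same libraries on top, held it. A match is a description of the letters, and the absence of one says nothing of a factor elsewhere. RefSeq windows were matched for 5 of the 8 members; both Rgs3 windows, at different starts, held 1 TATA box match, and gene counts do not show which start was used.

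By position, 11 of the 21 Rgs genes lie on chromosome 1. Rgs2, Rgs13, Rgs1, Rgs21 and Rgs18 follow each other on the minus strand between 143999338 and 144775435 (mm10), a stretch of 776 kb with no other protein coding gene. Within it, genes with high and with no counts lay side by side. Rgs2 stood at 102 TPM and Rgs1 at 44.8 TPM, while Rgs13, Rgs21 and Rgs18 had 0 counts in all 4 libraries. Rgs13 lies 134492 bases from Rgs2 and 64923 bases from Rgs1. Rgs16 lies on the same chromosome at 153740349 to 153745468, and Rgs8, 40025 bases away on the same strand, had 0 counts as well. The remaining members lie apart, Rgs3 on chromosome 4 (62559847 to 62704001, plus strand), Rgs10 on chromosome 7 (128373621 to 128418758, minus strand), Rgs14 on chromosome 13 (55369732 to 55384687, plus strand) and Rgs19 on chromosome 2 (181688419 to 181693977, minus strand).

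Uniqueness of sequence bears little on most of these counts. None of the distinct 31-mers of Rgs1, Rgs2, Rgs10, Rgs18 and Rgs19 occurs in a transcript of another gene. The shares were 3.06% for Rgs14, 9.09% for Rgs16 and 12.5% for Rgs3, so reads of Rgs16 and Rgs3 are the less certain ones. The antisense gene Gm28513 overlaps 10.1% of the Rgs16 exon bases and had 16 counts in all, against 1270 for Rgs16, and the counting used strand.

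Among the 13 other Rgs genes, Rgs11 and Rgs12 averaged at least 1 TPM and 9 had 0 counts. Rgs11, an R7 gene, stood at 8.23, 6.82, 13.6 and 6.00 TPM, a mean of 8.67 ± 3.43 TPM, below the means of all 7 detected members on this scale. In replicate 3 it exceeded Rgs3 and Rgs16, and the mean of Rgs16 lay below that of Rgs11 per coding transcript length (Rgs16 10.7 ± 1.57 TPM, Rgs11 13.5 ± 5.32 TPM) and in CPM (Rgs16 9.83 ± 1.51, Rgs11 10.6 ± 3.82). Replicate 3 was the high one (edgeR adjusted p = 0.427). Of its 11 annotated transcripts 8 have a retained intron, and the nuclear RNA Malat1 was also highest in replicate 3, at 795 TPM against 188 to 427 TPM in the others; its part in the Rgs11 values was not tested. Gnb5, the partner subunit of R7 proteins, stood at 2.95 ± 0.780 TPM. Rgs9 had 40 counts and Rgs6 had 3 over the 4 libraries.

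The rest of the G protein pathway gave the setting for these levels. Of 13 G alpha genes 8 averaged at least 1 TPM. Those of the inhibitory class led, with Gnai3 at 510.2 ± 25.9 TPM and Gnai2 at 294 ± 19.1 TPM, next to Gna13, of another class, at 286 ± 8.99 TPM. Per coding transcript length Gnai3 and Gnai2 lay close together, at 380 ± 20.2 and 374 ± 24.4 TPM. The summed level of the 8 RGS members was 0.565 ± 0.0362 of that of Gnai2 and Gnai3 together (SD, n = 4 libraries). This ratio was computed with the union exon length only, and its SD does not cover the choice of length. Gnaq, a G alpha q gene and thus of the class on which Rgs2 acts, stood at only 2.24 ± 0.142 TPM, and its close relative Gna11 at 6.87 ± 0.890 TPM, so that Rgs2 exceeded both. The stimulatory Gnas stood at 84.5 ± 3.98 TPM. Of 16 G beta and gamma genes 8 reached 1 TPM, led by Gnb1 (252 ± 18.7 TPM), Gnb2 (106 ± 8.37 TPM) and Gng5 (48.9 ± 5.5 TPM).

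The median level was 51.6 TPM over the 8 RGS members and 0 TPM over the 13 other Rgs genes. Members and lists were chosen with earlier results of these data known, which bears on these medians. Over the 14 other genes with an RGS domain the median was 17.6 TPM, and the 3 highest of these 14 stood above Rgs10. Arhgef1, a guanine nucleotide exchange factor that responds to Gna12 and Gna13, stood at 607 ± 90.7 TPM. The receptor kinases Grk6 and Grk2, which mark active receptors for arrestin binding, stood at 572 ± 52.3 TPM and 286 ± 53.9 TPM, and 13 of the 14 genes of this list reached 1 TPM. Among helper proteins, 10 of 10 did so, led by Gpsm3, a GoLoco protein, at 139 ± 18.6 TPM, the arrestin Arrb2 at 63.6 ± 12.4 TPM and Ppp1r9b, a scaffold that binds RGS proteins, at 40.8 ± 6.81 TPM.

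Median levels were 50.4 TPM over the receptors and 34.5 TPM over the effectors, a description with no test between lists. Of 26 receptors 23 reached 1 TPM, with Gpr132 at 959 ± 177 TPM, Gpr171 at 429.9 ± 29.9 TPM and Gpr18 at 401 ± 47.0 TPM the highest. Of 16 effectors 14 did so, led by the small GTPases Rac2 at 476 ± 57.1 TPM and Rhoa at 148 ± 10.2 TPM and by Dock2, an exchange factor for Rac, at 184 ± 22.2 TPM. Over the 6 pathway lists beside the Rgs genes, 0 tested genes varied beyond the trend, namely 0 of 13 RGS-domain, 8 G alpha, 9 G beta and gamma, 10 helper, 24 receptor and 14 effector genes, against 0.813% of all tested genes. At an unadjusted p under 0.05 in the edgeR test, 2 receptors and 1 effector were counted and none of the other 4 lists, against 692 of all 11567 tested genes.

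**Figure D5:**
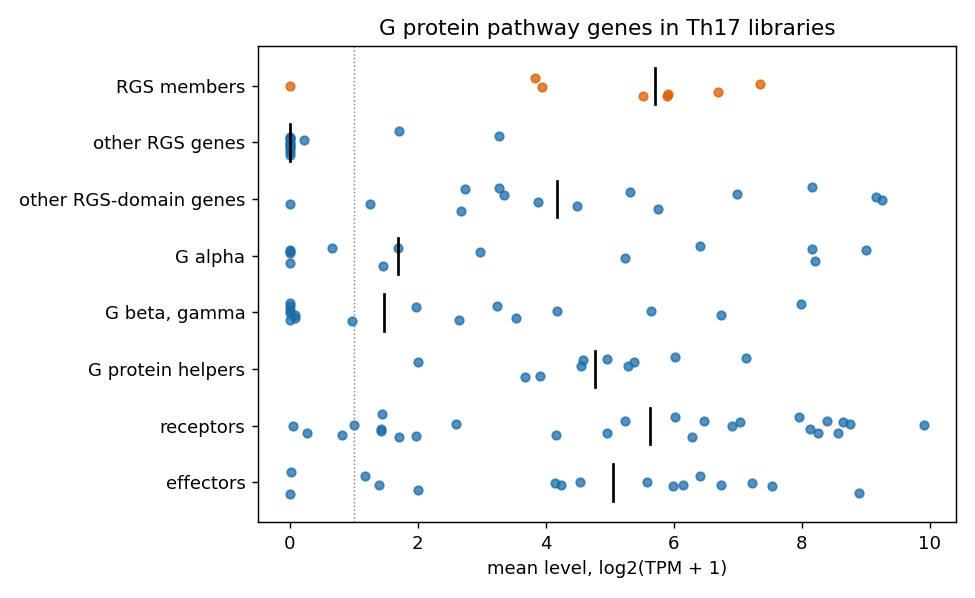
Mean level over 4 libraries as log2(TPM + 1) of each gene (points) in the RGS members and 7 lists of the G protein pathway, with list medians (black bars) and 1 TPM marked by the dotted line. The 7 detected RGS genes lie between the levels of Rgs3 (13.2 TPM) and Rgs10 (162 TPM), with Rgs18 at 0, while the highest G alpha gene, RGS-domain gene and receptor lie above all of them.

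Of all tested genes, those whose profile over the 4 libraries was most like that of Rgs3, the member with the widest SD, were Twnk, Faap100, Eif2ak2, Ddx20 and Ctif. Their root mean square distances on centred log2 CPM were 0.026, 0.026, 0.028, 0.029 and 0.030, taken over 4 libraries and 11567 genes. Each was highest in replicates 1 and 4 and lowest in replicate 2, as Rgs3 was, with Eif2ak2 for example at 59.2, 37.0, 49.6 and 58.0 TPM. Replicates 1 and 4 were on top in 20.7% of all tested genes, and no test was attached to the likeness.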

How the data were processed

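Per the file headers, the deposited counts are whole read pairs per gene, not normalized, from featureCounts 1.4.6-p4 run by the authors over exons of GENCODE M13. Read pairs were counted once, both ends had to map, and reverse strandedness was set (option 2). The recorded command holds no option to count multi-mapping pairs or pairs that overlap several genes. The assembly is mm10, per the labels; the file names in the headers carry STAR, and no aligner version was found in the sources at hand. Total counts were 36298276, 40652146, 26953724 and 25847970 in replicates 1 to 4, and 3 counts correspond to 0.0738 to 0.116 CPM.

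TPM was computed here from the counts and the deposited union exon lengths. Of 50600 gene identifiers 50376 matched a symbol. Biotypes, transcript lengths and 31-mers came from GENCODE M21, promoter windows from RefSeq (GRCm38.p6). Variation was tested in R 4.3.3 by edgeR 4.0.16, on genes kept by filterByExpr and scaled by TMM. An intercept was fitted per gene, and the deviance at the trended dispersion was compared with chi-square (3 degrees of freedom); p-values were Benjamini-Hochberg adjusted over all tested genes, with a threshold of 0.05. The quasi-likelihood test of a coefficient does not apply to 1 group. The step was tested on simulated data, drawn at the trended dispersion with changes planted in replicate 1 only. Other patterns between libraries were not covered. DESeq2 1.42.0 gave alternative size factors. Other steps ran in Python 3.11.15 (scipy 1.17.1, pandas 2.3.3, numpy 2.4.6), with plots from matplotlib 3.10.9.

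The members, gene lists and subfamilies were chosen with earlier results of these data known, and the motifs after the levels were known. Named genes are all members, other Rgs genes of at least 1 TPM, the top 3 of each pathway list and any gene called in it, neighbouring and overlapping genes of members, and the 5 genes most like the most variable member. Gnaq, Gna11, Gnas, Gnb5, Rgs6, Rgs9, Il2, Il17a, Il17f, Il23r, Ccr6, Irf4, Batf, Stat3, Itga2b, Ddx3y, Xist and Malat1 were named after their values were seen. Alternatives were pseudocount, denominator, scaling, length, filter, dispersion and leaving out each replicate.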

Additional observations from a re-analysis of the deposited data

Results flagged for a closer look

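Of 41 genes checked, 1 had a library far from the others. Zfp618, the protein coding gene next to Rgs3 on the side of higher coordinates, stood at 0.0175 TPM in replicate 2 on 2 counts in all, against 0 in the other 3 libraries. By chance about 1 in 20 genes would be set apart in this way, and at 2 counts the difference lies within counting error. No RGS gene was set apart.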

How the results depend on the processing

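No paired analysis was possible because there is 1 group. The number of RGS genes called as varying (0) did not change with DESeq2 size factors, no filter, a common dispersion or any replicate left out (without replicate 3, Rgs3 and Rgs14 fell under an unadjusted p of 0.05), nor did the 7 members at 1 TPM or more with a threshold of 5 TPM or a replicate left out. The count of all varying genes was 256 with a common dispersion, and 35 to 60 when 1 replicate was left out (35 without replicate 4, 39 without replicate 2, 59 without replicate 3, 60 without replicate 1), against 94. With TPM over nuclear protein coding genes, levels rose to 50.9 for Rgs1, 116 for Rgs2, 184 for Rgs10 and 67.3 for Rgs19, since the total is shared by fewer genes. With the coding transcript length they were 60.4, 91.2, 22.7, 235 and 10.7 TPM for Rgs1, Rgs2, Rgs3, Rgs10 and Rgs16; Rgs14 minus Rgs1 turned to -0.41 and Rgs16 minus Rgs3 to -1.01. In log2(CPM + 1), without length, Rgs10 minus Rgs2 turned to -0.41, Rgs19 minus Rgs14 to -0.11, Rgs14 minus Rgs1 to -1.11 and Rgs16 minus Rgs3 to -1.97. Rgs19 minus Rgs14 ranged from -0.067 to 0.17 with 1 replicate left out, turning to -0.029 without replicate 1 and -0.067 without replicate 4. All other order differences kept their sign under these settings and a pseudocount of 0.1 TPM. Rgs18 and the 9 other Rgs genes at 0 are limited by depth.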

Other observations

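Tial1, which encodes an RNA-binding protein and lies 21018 bases from Rgs10, stood at 35.3, 21.6, 40.9 and 27.1 TPM in replicates 1 to 4, with replicate 2 lowest, where Rgs10 was highest. Lman2, next to Rgs14, stood at 82.6 ± 6.00 TPM and Uchl5, next to Rgs2, at 25.5 ± 2.04 TPM (SD, n = 4). Tcea2, whose gene lies 347 bases from Rgs19 on the opposite strand, stood at 4.23 ± 1.00 TPM, far below Rgs19. None of these 4 neighbours varied beyond the trend.

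Il2, the growth factor gene of activated T cells, stood at 21.9, 12.9, 14.2 and 43.5 TPM in replicates 1 to 4 and varied beyond the trend (edgeR adjusted p = 7.33e-05). Its 2 highest libraries, replicates 1 and 4, were those of Rgs2, Rgs3 and Rgs16, and of 20.7% of all tested genes. The part of Il2 in the values of Rgs2, Rgs3 and Rgs16 was not tested, and with 4 libraries no correlation is given.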
